A study of Mus musculus with 6 samples.

Results

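Interleukin receptor chains were examined in microglia, the macrophages that reside in the brain, from mice with experimental autoimmune encephalomyelitis (EAE), a model of multiple sclerosis. The members were all probe sets whose platform gene symbol begins with Il, a number and r, without Il1rn. This gave 36 genes of 19505 named genes on the array, each with 1 probe set. The deposited table holds log2 values of 3 control and 3 CKO samples, 1 Affymetrix array per sample. The CKO samples carry a B cell conditional knock-out, and the title of the series links this to GM-CSF-expressing B cells. The sources used here do not give the deleted gene, the driver of the deletion, the age of the mice or any pooling of animals.

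All samples came from female C57BL/6 mice. Both groups received 100 μg recombinant myelin oligodendrocyte glycoprotein under the skin in 100 μL IFA. Pertussis toxin, 300 ng, was given into a vein on that day and again 48 h later. Microglia were collected when EAE had reached its peak. The labels do not call the replicates separate animals, so the p-values cover only sample-to-sample spread, part or all of which may be technical. The small number of arrays, 3 in each group, limits the precision.

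Interleukin receptors are cell-surface chains that bind a secreted cytokine and join as pairs or triplets to signal. Most type I and type II chains carry Janus kinases that activate STAT transcription factors, while chains of the interleukin-1 and interleukin-17 families signal through adaptor proteins such as Myd88 and Traf3ip2. In the inflamed brain, T cells, NK cells and myeloid cells carry different sets of these chains, and microglia themselves carry several, among them the receptor of interleukin-10.

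The isolates had high values of the microglial markers in both groups. The mean over 10 such genes, among them P2ry12, Csf1r and Cx3cr1, lay between 16.32 and 16.8 on the control arrays and between 16.66 and 17.24 on the CKO arrays (log2 values). The arrays also differed within the groups. CKO replicates 2 and 3 had an interquartile range of 3.08 and 3.11, against 3.66 to 4.0 on the other 4 arrays. Astrocyte markers averaged 12.96 on CKO replicate 1 and 11.57 on control replicate 2, against 8.69 to 9.35 on the other arrays.

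Interleukin receptor genes had lower values in CKO isolates more often than higher ones. Of the 36 genes, 28 had a lower mean in CKO, against 44.5% of all probe sets, and 8 a higher one, against 55.5%. Their median log2 difference was -0.50, against 0.06 over all 22206 probe sets. No member reached an adjusted p under 0.05 in limma's two-sided test, with p-values adjusted over the whole array (Benjamini-Hochberg), and 0.00901% of all probe sets did. At an unadjusted p under 0.05, which does not control false discoveries, 12 members were lower (33.3%) and 1 was higher (2.78%). Over all probe sets, the lower share was 6.35% and the higher share 3.55%, and after centring each array on its median these were 8.14% and 2.12%. That centring moved the median difference to -0.06 over all probe sets and to -0.63 over the members, and quantile normalization, which gives all arrays 1 distribution, to 0.01 and -0.43. The 12 were Il2rb, Il2ra, Il4ra, Il7r and Il21r of the common gamma chain group, Il18r1, Il18rap and Il1r2 of the interleukin-1 family, Il27ra, Il23r, Il10ra and Il13ra1. The gene with the higher value was Il1rapl1.

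The groups did not overlap for 16 members. In 14 of them (38.9% of the members) every control array lay above every CKO array, against 8.48% of all probe sets. In Il1rapl1 and Il1rapl2 (5.56% of the members) every CKO array lay above, near the 5.94% of all probe sets. A log2 difference below -1 was found for 8 members (22.2%), against 4.40% of all probe sets. In an isolate, fewer cells that carry a receptor and less RNA of that receptor per cell cannot be told apart.

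These counts depended on single arrays. Without control replicate 1 the lower members at an unadjusted p under 0.05 were 7 (19.4%), against 3.84% of all probe sets in that fit. Without control replicate 2, adjusted p under 0.05 was reached by 3 members, Il2rb (0.0131), Il18r1 (0.028) and Il18rap (0.0462), beside 0.563% of all probe sets, and no member was higher at an unadjusted p under 0.05. Without CKO replicate 1 it was reached by 5 members, Il1r2 (0.0123), Il18rap (0.0232), Il18r1 (0.0271), Il4ra (0.0288) and Il2ra (0.0365), which is 13.9% of the members, against 9.95% of all probe sets. At an unadjusted p under 0.05, 3 members (8.33%) were higher there, against 15.4% of all probe sets, and 11 were lower (30.6%), against 13.6%. That CKO group holds only the 2 arrays with the narrow range, so in that fit the group cannot be told apart from the value range. Il1r2, Il18r1, Il18rap, Il2ra, Il2rb, Il7r and Il27ra stayed at an unadjusted p under 0.05 in each of the 6 fits that left out 1 array.

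**Figure D1:**
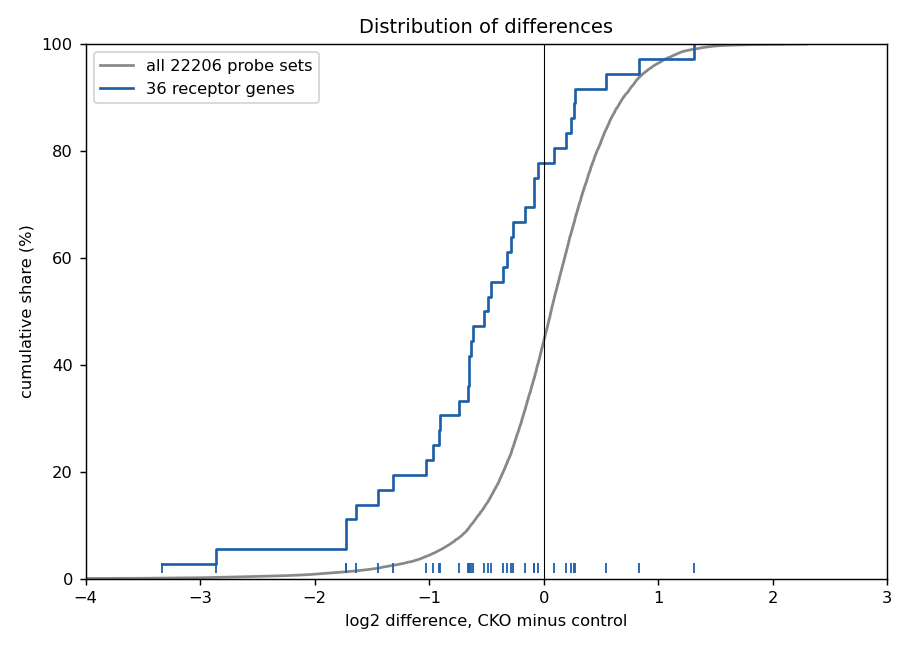
Cumulative share of genes (vertical axis, in percent) by log2 difference, CKO minus control (horizontal axis). The stepped line is the 36 receptor genes, the smooth line all 22206 probe sets, and short ticks mark each receptor gene; the receptor line crosses 0 at 77.8%, the other at 44.5%.

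T cell, NK cell and monocyte markers were also lower in CKO. All 10 measured T cell markers were lower in CKO at an unadjusted p under 0.05, with a median log2 difference of -2.67. Their mean lay at 8.50 to 10.33 on the control arrays and at 6.64 to 7.13 on the CKO arrays, and control replicate 2 was the lowest control. NK cell markers (9 of 9 lower, median -0.88) ranged from 7.44 to 8.64 and from 6.69 to 7.33. Markers of blood monocytes (11 of 11 lower, median -1.99) ranged from 12.43 to 13.23 and from 10.78 to 11.68. Over all probe sets, 44.5% had a lower mean in CKO, and 6.35% were lower at an unadjusted p under 0.05. The 12 lower receptor genes deviated from their 6-array mean by 0.99, 0.18 and 1.11 on control replicates 1, 2 and 3, and by -0.86, -0.59 and -0.83 on CKO replicates 1, 2 and 3. Control replicate 2 thus lay between the groups for the receptor genes as for T cell and monocyte markers. No gene of these 3 marker lists was among the dimmest 20% of probe sets. The part of these cells in the receptor differences was not tested.

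**Figure D2:**
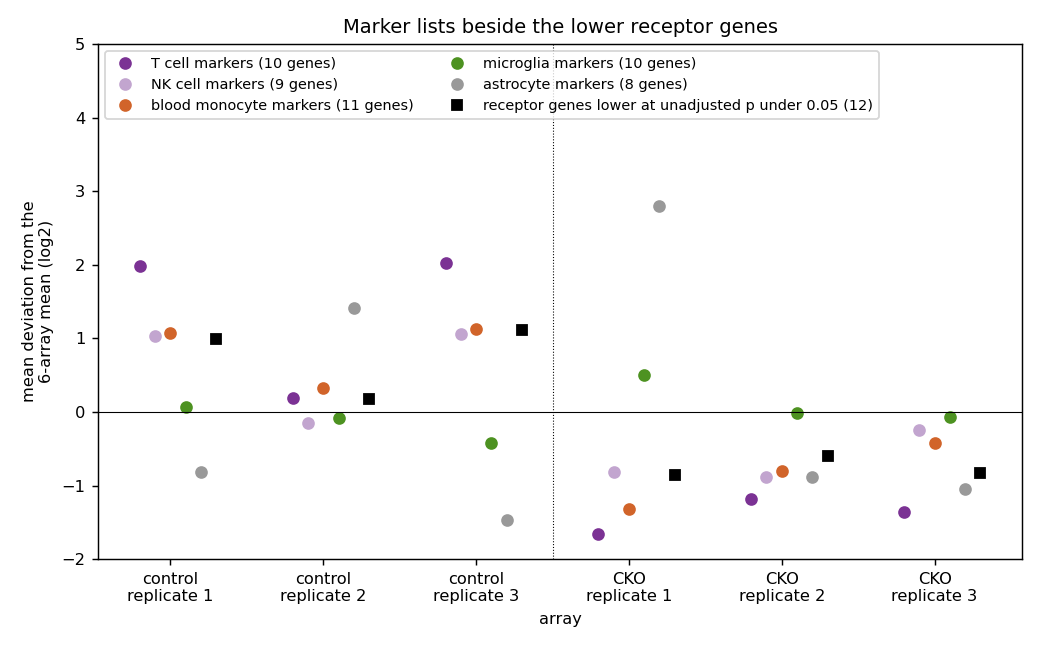
Mean deviation from the 6-array mean (log2, vertical axis) on each array (horizontal axis) for 5 marker lists, as circles, and for the 12 lower receptor genes, as black squares. T cell, NK cell and monocyte markers and the receptor genes are highest on control replicates 1 and 3, while astrocyte markers are highest on CKO replicate 1 and control replicate 2. The 12 receptor genes were chosen for lower CKO values.

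Promoter sequences of 3 of the 12 lower genes are shown because they hold the spaced TTC and GAA letters that STAT factors, the main effectors of type I and type II chains, are known to bind. RefSeq promoter windows (GRCm38.p6, 300 bases each) were found for 29 of the 36 genes and for 9 of the 12 lower ones. TTCNNNGAA, which reads alike on both strands, lay in 5 of 33 member windows (15.2%), those of Il1r2, Il18r1, Il7r, Il12rb2 and Il31ra, against 8.3% of all 32851 windows. The interferon-response letters, GAAA before and after a gap of 2, lay in the window of Il1rap alone (3.03%, against 3.44% of all) and the NF-kB letters, GGGA and TTCC around a gap of 2, in that of Il22ra1 alone (3.03%, against 1.47%), both strands searched, so neither overlaps TTCNNNGAA here. Each line below gives the 250 bases before the start site, 5′ to 3′ on the gene's strand, with matches to TTCNNNGAA in capitals. They are letters in a window, not sites shown to be bound.
Il1r2, chr1:40085843-40086092, plus strand: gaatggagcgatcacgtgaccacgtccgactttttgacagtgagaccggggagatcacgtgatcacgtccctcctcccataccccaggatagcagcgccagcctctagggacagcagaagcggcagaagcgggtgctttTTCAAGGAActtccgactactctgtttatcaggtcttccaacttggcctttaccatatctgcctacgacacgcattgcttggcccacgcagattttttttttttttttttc
Il18r1, chr1:40465756-40466005, plus strand: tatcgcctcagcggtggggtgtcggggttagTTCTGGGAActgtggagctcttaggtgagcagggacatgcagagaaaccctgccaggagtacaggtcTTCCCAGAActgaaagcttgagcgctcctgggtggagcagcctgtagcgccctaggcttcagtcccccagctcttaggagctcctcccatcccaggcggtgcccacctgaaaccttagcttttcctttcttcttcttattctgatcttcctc
Il7r, chr15:9529877-9530126, minus strand: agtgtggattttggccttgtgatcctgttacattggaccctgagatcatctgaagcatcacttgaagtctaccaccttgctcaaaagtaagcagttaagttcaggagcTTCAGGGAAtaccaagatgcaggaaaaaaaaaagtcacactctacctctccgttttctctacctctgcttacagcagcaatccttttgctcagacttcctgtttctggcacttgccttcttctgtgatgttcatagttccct

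The common gamma chain group holds receptors for interleukins that keep lymphocytes alive and dividing. Of its 7 measured genes 6 were lower in CKO, 5 of them at an unadjusted p under 0.05, with a median log2 difference of -1.03. Over all probe sets, 44.5% had a lower mean in CKO, and 6.35% were lower at that p. Il2rb, the signalling chain shared by the receptors of interleukin-2 and interleukin-15, stood at log2 values of 10.65, 7.57 and 10.96 on control replicates 1, 2 and 3, and at 6.09, 6.36 and 6.73 on CKO replicates 1, 2 and 3. Every control lay above every CKO array, with control replicate 2 much the closest to them. The difference was -3.33 (SE 0.80, 95% confidence interval -5.15 to -1.51), which is 10.1-fold (limma adjusted p = 0.195), the largest among the 36 genes. It was -4.41 without control replicate 2.

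Il2ra, the chain that raises the affinity for interleukin-2 on activated and regulatory T cells, stood at 7.10, 6.46 and 6.61 in controls and at 4.48, 5.67 and 5.11 in CKO. The groups were separate, and CKO replicate 1 was the lowest. The log2 difference was -1.64 (SE 0.37, limma adjusted p = 0.172). Il2ra is among the dimmer 50% of probe sets. Its CKO mean of 5.09 lies below 5.58, the mean level that bounds the dimmest 20%, so the size of the difference is uncertain. Il15ra, which presents interleukin-15 to cells with Il2rb, stood at 9.84, 9.33 and 11 in controls and at 9.29, 8.37 and 9.80 in CKO. These groups overlapped, and the interval of the difference ran from -2.07 to 0.26. Leaving out control replicate 3 gave -0.43, and leaving out CKO replicate 2 gave -0.51.

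Il7r binds interleukin-7 on naive and memory T cells and, with another partner chain, thymic stromal lymphopoietin. Its log2 values were 12.62, 12.17 and 12.58 in controls and 11.54, 11.14 and 11.80 in CKO. The groups were separate, and the difference was -0.96 (SE 0.30, limma adjusted p = 0.323). Il4ra, the chain common to the receptors of interleukin-4 and interleukin-13 on myeloid and lymphoid cells, stood at 12.20, 11.91 and 11.72 in controls and at 11.36, 10.80 and 9.72 in CKO. The CKO arrays spread widely, with replicate 3 lowest. The difference was -1.32 (SE 0.42, adjusted p = 0.350), and -0.86 without CKO replicate 3. Its unadjusted p was 0.05 or more without control replicate 1.

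Il21r, the receptor of the T cell cytokine interleukin-21, stood at 9.03, 8.46 and 9.66 in controls and at 8.10, 8.41 and 7.55 in CKO. Control replicate 2 and CKO replicate 2 were nearly equal. The log2 difference was -1.03 (SE 0.38, limma adjusted p = 0.431), and its unadjusted p was 0.05 or more without control replicate 1, control replicate 3 or CKO replicate 3, and with the replicate number as a block. Il9r, the receptor chain of interleukin-9, whose sign turned under quantile normalization and median centring (-0.036 and -0.03), showed 6.70, 6.69 and 6.63 in controls and 6.34, 7.28 and 6.68 in CKO, with overlap and a difference of 0.09 (interval -0.62 to 0.80).

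**Figure D3:**
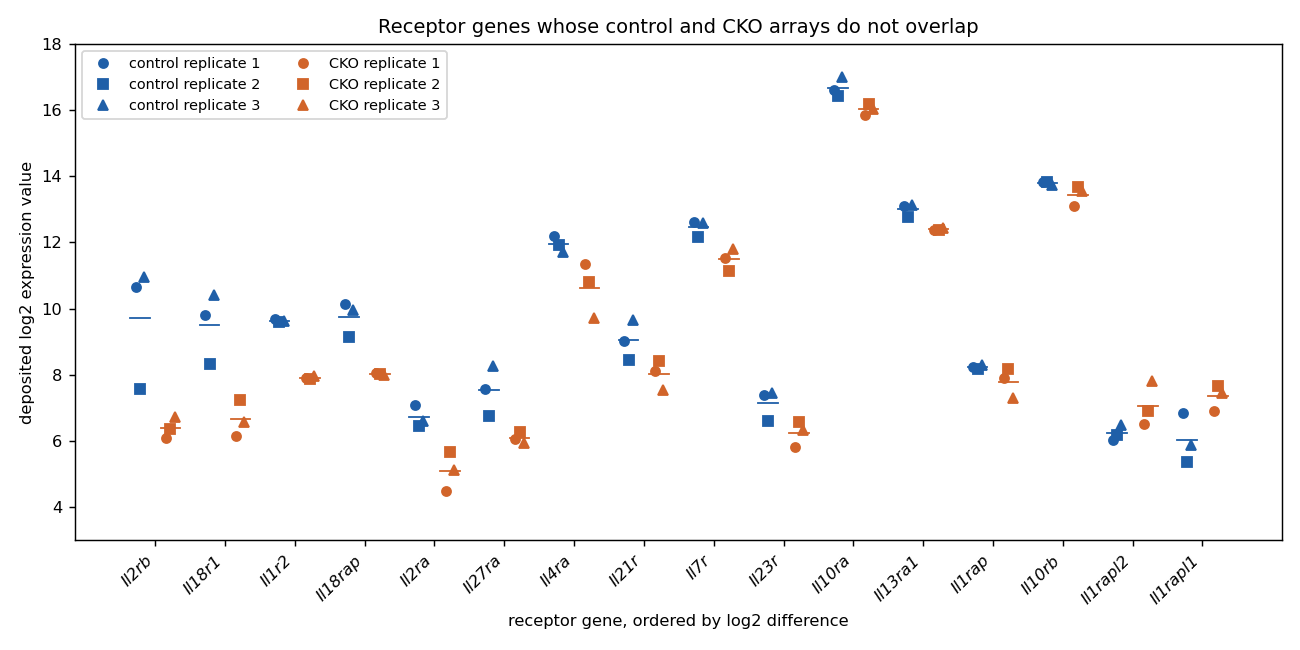
Deposited log2 values (vertical axis) of the 16 receptor genes whose groups do not overlap, ordered by log2 difference (horizontal axis); blue marks are controls, orange marks CKO, mark shapes are replicates and short lines are group means. Control replicate 2 is the lowest control for Il2rb (7.57), Il18r1 (8.34) and Il18rap (9.13), while the arrays of Il1r2 lie close together within each group.

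The interleukin-1 and interleukin-18 family signals through an intracellular TIR domain and Myd88. Of its 8 measured genes 6 were lower in CKO, 3 of them at an unadjusted p under 0.05, and 2 were higher, 1 of them at that p. Over all probe sets, 44.5% had a lower mean in CKO, and at that p 6.35% were lower and 3.55% higher. Both chains of the interleukin-18 receptor were lower. Il18r1, the ligand-binding chain, stood at log2 values of 9.80, 8.34 and 10.40 in controls and at 6.15, 7.23 and 6.58 in CKO. The difference was -2.86 (SE 0.53, interval -4.08 to -1.64), which is 7.26-fold (limma adjusted p = 0.121). Il18rap, the accessory chain needed for signalling, stood at 10.13, 9.13 and 9.96 in controls and at 8.05, 8.02 and 7.98 in CKO, a difference of -1.72 (SE 0.32, adjusted p = 0.121). The CKO arrays of Il18rap were nearly equal, and control replicate 2 was the lowest control for both chains.

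Il1r2, a decoy that binds interleukin-1 without signalling, had the smallest p of all members. Its log2 values were 9.69, 9.59 and 9.64 in controls and 7.91, 7.86 and 7.97 in CKO, and the SD was 0.05 and 0.06. The arrays of each group lay close together, and the groups were far apart. The difference was -1.73 (SE 0.25, interval -2.29 to -1.16), which is 3.31-fold (limma adjusted p = 0.0891). Unlike the interleukin-18 receptor chains, control replicate 2 did not stand apart from the other controls here, and the difference lay between -1.76 and -1.70 in the 6 fits that left out 1 array. Neutrophils are a known source of Il1r2. Their markers (7 of 8 lower, 1 of them at an unadjusted p under 0.05, median -0.61) averaged 14.42 to 15.02 on the control arrays. On the CKO arrays they averaged 13.45 to 14.44, with the groups overlapping. Over all probe sets, 44.5% had a lower mean in CKO, and 6.35% were lower at that p. The part of neutrophils or other cells in the Il1r2 difference was not tested.

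Neither chain of the signalling receptor of interleukin-1 reached an unadjusted p under 0.05. Il1r1, its ligand-binding chain, stood at 7.37, 7.55 and 8.20 in controls and at 7.04, 7.75 and 7.53 in CKO (log2 difference -0.27, interval -1.03 to 0.50). Leaving out control replicate 3 moved it to -0.02, leaving out CKO replicate 1 to -0.07, control replicate 1 to -0.43 and CKO replicate 2 to -0.42. Il1rap, the accessory chain that it shares with the receptors of interleukin-33 and interleukin-36, stood at 8.23, 8.19 and 8.31 in controls and at 7.89, 8.18 and 7.29 in CKO. Its groups were separated by 0.01 between control replicate 2 and CKO replicate 2, and the difference was -0.46 (interval -1.15 to 0.24), or -0.21 without CKO replicate 3. Il1rl2, the interleukin-36 receptor, stood at 10.57, 10.55 and 10.14 in controls and at 10.06, 10.42 and 8.87 in CKO, with overlap (-0.64, interval -1.59 to 0.32, or -0.18 without CKO replicate 3).

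Il1rapl1 and Il1rapl2, relatives of the accessory chain that act at neuronal synapses, went the other way. Members with every CKO array above the controls (5.56%) were no more frequent than such probe sets on the whole array (5.94%). Il1rapl1 stood at log2 values of 6.85, 5.36 and 5.89 in controls and at 6.91, 7.67 and 7.46 in CKO. Control replicate 1 nearly reached CKO replicate 1, and the difference was 1.31 (SE 0.42, interval 0.36 to 2.27, limma adjusted p = 0.346). Its unadjusted p was 0.05 or more without control replicate 2. Il1rapl2 stood at 6.02, 6.19 and 6.48 in controls and at 6.50, 6.90 and 7.80 in CKO (0.84, interval -0.01 to 1.69), and differed by 0.47 without CKO replicate 3. Neuron markers were higher in CKO for 7 of 7 genes, against 55.5% of all probe sets. Their means were 7.92 to 9.55 on the control arrays and 8.67 to 10.63 on the CKO arrays. CKO replicate 1, which had the highest neuron markers, had the lowest CKO value of both genes. The part of neuronal RNA was not tested.

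Some receptors of the interleukin-6 and interleukin-12 type, though not all, use the shared signalling chain gp130. All 6 measured genes of this family had lower means in CKO, 2 at an unadjusted p under 0.05, with a median log2 difference of -0.57. Over all probe sets, 44.5% had a lower mean in CKO, and 6.35% were lower at that p. Il27ra, the specific chain for interleukin-27, a cytokine that restrains T cell responses, stood at 7.58, 6.76 and 8.26 in controls and at 6.05, 6.27 and 5.93 in CKO. The controls spread widely while the CKO arrays lay close together. The difference was -1.45 (SE 0.39, interval -2.35 to -0.55), which is 2.73-fold (limma adjusted p = 0.247). Il23r, the specific chain for interleukin-23, which maintains T helper 17 cells, stood at 7.38, 6.61 and 7.45 in controls and at 5.81, 6.57 and 6.32 in CKO. Control replicate 2 and CKO replicate 2 were nearly equal, and the difference was -0.91 (SE 0.34, adjusted p = 0.436). Its unadjusted p was 0.05 or more when any array other than control replicate 2 or CKO replicate 2 was left out. Il27ra and Il23r are both among the dimmer 50% of probe sets.

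The chains of the interleukin-12 receptor gave other values than Il23r. Il12rb1, shared by the receptors of interleukin-12 and interleukin-23, stood at log2 values of 5.20, 4.77 and 5.37 in controls and at 4.35, 5.17 and 5.67 in CKO. It is among the dimmest 20% of probe sets, where a level is uncertain, and differed by -0.05 (interval -0.92 to 0.82). Its sign turned without control replicate 3 (0.08) and without CKO replicate 1 (0.31). Il12rb2, the chain specific for interleukin-12 on T helper 1 cells, stood at 9.65, 7.91 and 9.16 in controls and at 8.16, 8.53 and 9.17 in CKO, with overlap and a difference of -0.29 (interval -1.38 to 0.81). Here control replicate 2 was the lowest of all 6 arrays, and the difference was 0.085 without control replicate 1 and -0.79 without control replicate 2.

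Il6ra, the ligand-binding chain for interleukin-6, stood at 13.62, 13.53 and 13.36 in controls and at 13.61, 12.62 and 12.83 in CKO. CKO replicate 1 lay among the controls and the other 2 CKO arrays below them, and the log2 difference was -0.48 (interval -1.23 to 0.26), or -0.78 without CKO replicate 1, -0.28 without CKO replicate 2 and -0.23 under quantile normalization. Il6st, which encodes its signalling partner gp130, stood at 13.96, 13.62 and 13.76 in controls and at 14.28, 13.95 and 13.42 in CKO, a difference of 0.10. Il31ra, the receptor chain of the itch cytokine interleukin-31, ranged from 3.36 to 4.90, also among the dimmest 20% of probe sets.

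The receptor of interleukin-10, which dampens microglial activation, had separate groups in both chains. Il10ra stood at log2 values of 16.60, 16.44 and 16.99 in controls and at 15.84, 16.20 and 16.02 in CKO, a difference of -0.66 (SE 0.28, interval -1.29 to -0.02, limma adjusted p = 0.495). Il10rb, the accessory chain shared with the receptors of interleukin-22 and lambda interferons, stood at 13.84, 13.83 and 13.73 in controls and at 13.09, 13.69 and 13.55 in CKO. Those groups were separated by 0.04 between control replicate 3 and CKO replicate 2, and the difference was -0.36 (interval -0.99 to 0.27), or -0.18 without CKO replicate 1 and -0.11 under quantile normalization. The difference of Il10ra became -0.44 under quantile normalization, and its unadjusted p then missed 0.05, as it did without any array other than control replicate 2.

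The other 4 members of that family, Il20ra, Il20rb, Il22ra1 and the soluble interleukin-22 binding protein Il22ra2, serve mainly epithelial cells. Il20ra, Il22ra1 and Il22ra2 ranged from 4.20 to 5.27 over the 6 arrays and were among the dimmest 20% of probe sets. Il20rb was 7.20, 7.11 and 7.28 in controls and 6.82, 8.47 and 7.94 in CKO (log2 difference 0.55, interval -0.41 to 1.50). CKO replicate 1 was its lowest array, and the difference was 1.01 without it and 0.18 without CKO replicate 2.

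Of the interleukin-3, interleukin-5 and interleukin-13 chains, Il13ra1 had separate groups. It pairs with Il4ra to form the receptor of interleukin-13 and stood at log2 values of 13.11, 12.78 and 13.13 in controls and at 12.37, 12.38 and 12.43 in CKO. The CKO arrays were nearly equal, and the difference was -0.61 (SE 0.26, limma adjusted p = 0.487). It became -0.35 under quantile normalization, and its unadjusted p then missed 0.05, as it did without any array other than control replicate 2. The decoy Il13ra2, which binds interleukin-13 and is among the dimmest 20% of probe sets, ranged from 5.16 to 5.84. Il3ra stood at 7.72, 7.30 and 8.22 in controls and at 6.66, 7.18 and 7.84 in CKO (-0.52, interval -1.40 to 0.36), and differed by -0.28 when control replicate 3 was left out, by -0.24 when CKO replicate 1 was, and by -0.83 when CKO replicate 3 was. Il5ra, the eosinophil and B cell chain, stood at 6.57, 6.08 and 7.69 in controls and at 5.45, 5.99 and 6.67 in CKO (-0.74, interval -1.83 to 0.35), and differed by -0.29 without control replicate 3 and -0.45 without CKO replicate 1. Both overlapped between the groups. They signal with Csf2rb, the beta chain they share with GM-CSF, which stood at 10.84, 10.26 and 10.67 in controls and at 10.18, 9.82 and 10.19 in CKO.

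The interleukin-17 receptors showed no separation. All 5 overlapped between the groups, and no gene reached an unadjusted p under 0.05. Il17ra, the chain common to these receptors, stood at log2 values of 12.49, 12.11 and 11.76 in controls and at 12.41, 11.59 and 10.41 in CKO. CKO replicate 1 lay among the controls and CKO replicate 3 far below them, and the difference was -0.65 (interval -1.77 to 0.47). Leaving out CKO replicate 3 gave -0.12, and leaving out CKO replicate 1 gave -1.12. Quantile normalization gave -0.41. Il17rb, Il17rc, Il17rd and Il17re, with log2 differences from -0.17 to 0.20 and values from 5.06 to 6.41, were all among the dimmer 50% of probe sets. In all, 17 of the 36 members were in that part of the array, 4 of them among the 13 with an unadjusted p under 0.05. These 4 were Il2ra, Il27ra, Il23r and Il1rapl1.

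**Figure D4:**
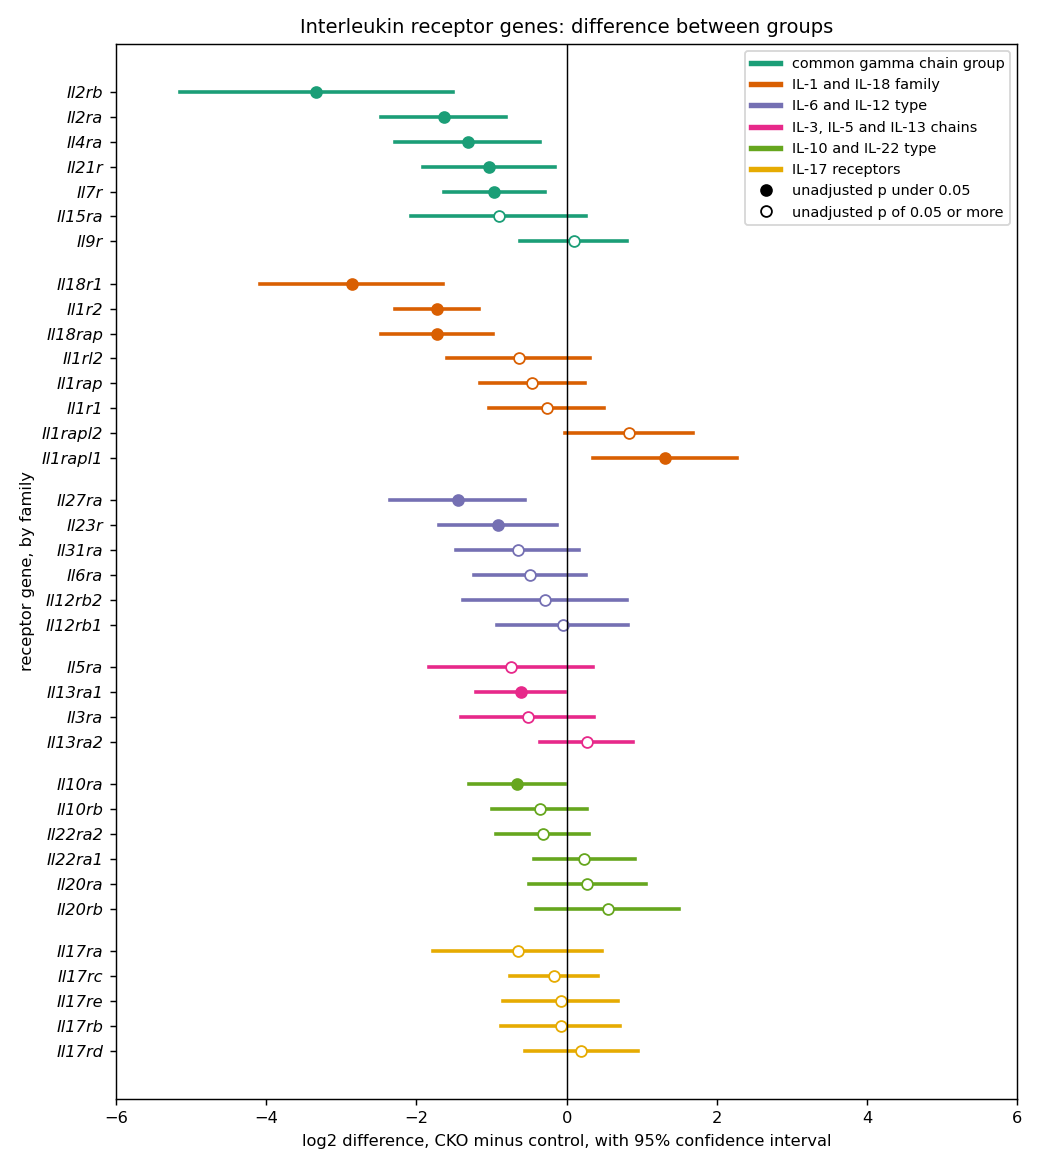
Log2 difference, CKO minus control (horizontal axis), with its 95% confidence interval for each of the 36 receptor genes (vertical axis), coloured by family; filled points have an unadjusted p under 0.05. Filled points lie left of 0 in the common gamma chain group from -3.33 (Il2rb) to -0.96 (Il7r), and the interleukin-17 receptors cluster between -0.65 and 0.20.

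Several members are neighbours in the genome. In the RefSeq gene table, 8 pairs of members are adjacent protein-coding genes, and these hold 15 of the 36 genes. On chromosome 1, Il18r1 and Il18rap are adjacent (log2 differences -2.86 and -1.72), and Il1r2, Il1r1 and Il1rl2 follow each other (-1.73, -0.27 and -0.64). Il4ra and Il21r on chromosome 7 differed by -1.32 and -1.03, and Il2ra and Il15ra on chromosome 2 by -1.64 and -0.90. Il12rb2 and Il23r on chromosome 6 differed by -0.29 and -0.91. Il17re and Il17rc, also on chromosome 6, differed by -0.08 and -0.17. In 7 of the 8 pairs both genes had lower means in CKO, and 28 of all 36 members had lower means. The exception was Il22ra2 and Il20ra on chromosome 10 (-0.32 and 0.28).

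Among the ligands of these receptors, the balance of lower and higher means turned with the scaling. Of 32 measured interleukin ligand genes, 13 had lower and 19 higher means in CKO (17 and 15 under quantile normalization, 18 and 14 after median centring), with a median log2 difference of 0.07 (-0.02 and -0.06). In the fit to the deposited values, 3 lower ones and no higher one reached an unadjusted p under 0.05, against 6.35% and 3.55% of all probe sets. These were Ebi3, a subunit of interleukin-27 (-2.10), Il1b (-2.67) and Il10 (-0.77), and no ligand passed after adjustment over all probe sets (lowest limma adjusted p = 0.216). Il1b, which activates the interleukin-1 receptor, stood at 13.86, 13.96 and 14.76 in controls and at 9.19, 13.43 and 11.94 in CKO, so CKO replicate 1 lay far below the rest. Il18, the ligand of Il18r1, stood at 11.97, 12.45 and 12.18 in controls and at 12.28, 11.60 and 11.49 in CKO, with overlap (-0.41). The smallest p after these 3 was that of Il13, with a difference of 0.60.

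Chains and binding proteins outside the symbol pattern were 10 measured genes, 7 with lower means, 4 of them at an unadjusted p under 0.05, and 0 passed after adjustment (limma). Il1rn, the soluble antagonist of the interleukin-1 receptor, stood at 10.91, 9.78 and 12.08 in controls and at 7.82, 8.98 and 7.30 in CKO (log2 difference -2.89). Il18bp, which neutralises interleukin-18, stood at 8.18, 7.42 and 8.65 in controls and at 5.95, 7.13 and 6.76 in CKO (-1.47). Both had separate groups, beside Il1r2 and the interleukin-18 receptor chains described above. Csf2ra (-2.16) and Crlf2, the receptor chain of thymic stromal lymphopoietin that pairs with Il7r (-0.69), were the other 2. The groups of Csf2ra overlapped. Over all probe sets, 6.35% were lower at that p.

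Downstream, all 9 measured Janus kinase and STAT genes had lower means in CKO, 6 of them at an unadjusted p under 0.05 and 0 after adjustment (limma, lowest adjusted p = 0.239), with a median log2 difference of -0.90. Stat4, which carries interleukin-12 signals in T and NK cells, stood at 10.51, 8.37 and 10.44 in controls and at 7.42, 8.32 and 7.63 in CKO (-1.98). Its control replicate 2 lay 0.05 above CKO replicate 2, and that control array was also the lowest control for the T cell markers. The part of T cells or other cells in the Stat4 difference was not tested. Stat2 of the interferon pathway (-1.98), Jak2 (-1.04) and Tyk2 (-1.02) completed the 4 with the smallest p. Among 11 feedback inhibitors, 9 were lower (8 under quantile normalization) and 3 reached that p, Socs1 (-0.87), Socs3 (-1.37) and Cish (-0.80). The groups overlapped for all 3, and Cish is among the dimmest 20% of probe sets. Among 11 adaptors and kinases of the interleukin-1 and interleukin-17 receptors, 10 were lower (8 under quantile normalization) and 3 reached that p. These were Irak3, an inhibitory kinase homologue (-1.21), Irak2 (-1.03), whose groups overlapped, and Peli1, a ubiquitin ligase (-0.71). No gene of either list passed after adjustment over all probe sets. The share of all probe sets that were lower at an unadjusted p under 0.05 was 6.35%.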

How the data were processed

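The deposited table holds log2 expression values per probe set, made by the authors with RMA per the submitters' processing notes (the sources used here give no version or settings) from cDNA labelled with an Affymetrix whole-transcript kit. That the scale is log2 was inferred from the range of the values. Of 22206 probe sets, 19572 named 1 gene symbol, 0 several and 2634 are unnamed here. All 19572 matched the RefSeq gene table (GRCm38.p6) by Entrez number. The highest-mean probe set stood for a gene.

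CKO minus control was tested on all probe sets in R 4.3.3 with limma 3.58.1 (lmFit and eBayes, without covariates), two-sided, with Benjamini-Hochberg adjustment over all of them. On simulated data of this size for the CKO and control comparison, 51 of 100 genes with a log2 change of 2 and 94 of 100 with a change of 4 were called, beside 4 false calls. The simulated noise was drawn independently for each gene and array. It held no shifts shared by many genes on an array, so these rates need not hold for the deposited arrays. Intervals are at 95%. An exact permutation test of 3 against 3 cannot go below 0.1 and was not used.

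Members, families, 5 pathway lists and 12 marker lists were chosen with earlier results of these data known. Values by array are given for members at an unadjusted p under 0.05 or with separate groups and for the 5 with the highest mean. They are also given for the partner chains of these and for Il12rb2, which pairs with Il12rb1. Of pathway lists, up to 4 genes with the smallest p are named. Values by array of Il9r, Il20rb, Il3ra, Il5ra, Il17ra, Il18 and Csf2rb were added after seeing the values. Protein motifs were not analysed here. Other settings were quantile normalization, median centring, leaving out the dimmest 20% or 50% of probe sets, array weights, a variance trend with robust estimation, a block for the replicate number, adjusted p under 0.1, averaging the probe sets of a gene and leaving out arrays. Different probe sets are not compared in level.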

Additional observations from a re-analysis of the deposited data

How the results depend on the processing

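No member passed at adjusted p under 0.05, and this held under quantile normalization, median centring, both filters on dim probe sets, the trended robust fit, the replicate block and without CKO replicates 2 and 3 together. With array weights, which gave CKO replicate 1 the lowest weight (0.26), 7 members (19.4%) and 1694 probe sets (7.63%) passed. At adjusted p under 0.1, 1 member (Il1r2) and 44 probe sets passed. Probe sets called were otherwise 1 under quantile normalization and under each filter, 4 under the trended robust fit and 0 without CKO replicates 2 and 3 together. Leaving out 1 array gave 0 to 2209 probe sets and 0 to 5 members called, and a member median of -0.61 to -0.40. At an unadjusted p under 0.05, 7 to 13 members were lower and 0 to 3 higher in these fits. Over all probe sets, the lower share then ran from 3.84% to 13.6% and the higher share from 1.71% to 15.4%. Higher members numbered 3 with array weights (8.33%, against 15.1% of all probe sets in that fit), 0 without the dimmest 50% of probe sets (where Il1rapl1 was not tested) and 0 without CKO replicates 2 and 3 together. That last setting holds 1 CKO array, which is assumed to vary like the controls. Averaging the probe sets of a gene changed no member, since each has 1.

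No pairing by replicate number was evident: deviations of same-numbered arrays correlated at -0.01, -0.23 and 0.25, and the labels do not say what the numbers share. With the replicate block, 0 probe sets were called. At an unadjusted p under 0.05, 10 members were lower (27.8%), against 6.42% of all probe sets in that fit. There 2 were higher (5.56%), against 3.55%. Of the 12 lower members 9 kept that p, Il10ra, Il13ra1 and Il21r lost it, and Il15ra gained it. The higher members were Il1rapl1 and Il1rapl2.

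Of the 12 lower members, 7 stayed at that p in every setting that tested them (Il1r2, Il18r1, Il18rap, Il2ra, Il2rb, Il27ra, Il7r). The sign turned for some members whose groups overlapped. Leaving out or weighting arrays cannot turn the sign of a member with separate groups, so in those settings only overlapping members could turn. With array weights the members that turned were Il12rb1 (0.19), Il17rb (0.25) and Il17re (0.13). Without CKO replicates 2 and 3 together they were Il17ra (0.29), Il17rd (-0.35), Il20ra (-0.22), Il20rb (-0.38), Il22ra1 (-0.017), Il6ra (0.11) and Il9r (-0.33). Il9r also turned under quantile normalization (-0.036) and median centring (-0.03). With 1 array left out, Il12rb1 ranged from -0.35 to 0.31, Il12rb2 from -0.79 to 0.085, Il17rb from -0.34 to 0.14, Il17rd from -0.08 to 0.47, Il17re from -0.30 to 0.24 and Il9r from -0.16 to 0.31. Signal over background was not used here, so levels of the dimmest probe sets are uncertain.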

Other observations

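Other marker lists had smaller median differences than those of T cells and monocytes. B cell markers had lower means in CKO for 6 of 7 genes (median log2 difference -0.59), with array means of 6.43 to 6.77 in controls and 5.63 to 6.22 in CKO. Of these, 1 reached an unadjusted p under 0.05, Cd22 (-2.22, limma adjusted p = 0.0983). Dendritic cell markers were lower for 7 of 7 (-0.69), with array means of 7.43 to 7.61 in controls and 6.15 to 7.15 in CKO. Markers of mast cells and eosinophils were lower for 4 of 8 (-0.07). Endothelial markers were lower for 3 of 7 (0.14), astrocyte markers for 2 of 8 (0.64), oligodendrocyte markers for 2 of 6 (0.45) and neuron markers for 0 of 7 (0.70). Microglial markers were lower for 3 of 10 (0.32), and Fcrls (1.21) and Gpr34 (0.89) were higher at an unadjusted p under 0.05. No gene of the 12 marker lists passed limma's test after adjustment over all probe sets. Of their 98 genes, 32 were lower and 3 higher at an unadjusted p under 0.05. Over all probe sets, 6.35% were lower and 3.55% higher at that p.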
